A study of Rattus norvegicus with 48 samples.

Results

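Liver miRNA levels were compared between 72 h and 6 h after partial hepatectomy (PHx) in rats on a chronic ethanol diet. The comparison used 6 of the 48 animals of the study, 3 labelled EtOH.72hr.untreated and 3 labelled EtOH.6hr.untreated, chosen by their labels, and all 143 miRNAs of the deposited table were tested. All 6 were male Sprague-Dawley rats of 8 to 14 wk, pair-fed for 6 to 8 wk with a Lieber-DeCarli liquid diet in which 36% of the calories came from ethanol. They then had 70% of the liver removed and received neither saline nor AM21, the miR-21 inhibitor given to other animals of the study. Pair-fed control rats (CHO) took the same share of calories from carbohydrate, and 3 of them were measured at each time. The study asked how chronic ethanol intake alters miRNAs in the regenerating liver, and the pair of time points here sets late regeneration against the early response. Animals of both time points belong to the set numbered 4 in the labels, which do not say what a set is. The label numbers of the animals are 4_4, 4_5 and 4_6 at 6 h and 4_10, 4_11 and 4_12 at 72 h, and values of single animals are given in that order.

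A miRNA is a short RNA that is cut from a hairpin and loaded into an Argonaute protein, where it pairs with messenger RNAs and lowers their translation or stability. Pairing depends mainly on the seed, the bases near the 5′ end, so miRNAs with the same seed share many targets and are treated as a family. After PHx the remaining hepatocytes leave quiescence within hours, pass through rounds of division over the next days, and are followed by the stellate, endothelial and bile duct cells. Whole liver tissue was measured, so a change in a miRNA may reflect its level in a cell type or the share of that cell type, and fewer cells of a type cannot be told apart from less miRNA per cell.

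Mature sequences were taken from RefSeq (rat build GRCr8), in which 122 of the 143 miRNAs were matched. They are written 5′ to 3′, with the seed (bases 2 to 8) in capitals. The first set holds miRNAs that were higher at 72 h and lead the results below.
miR-19a: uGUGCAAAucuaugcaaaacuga
miR-19b: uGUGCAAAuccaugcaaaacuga
miR-16: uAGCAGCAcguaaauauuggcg
miR-15b: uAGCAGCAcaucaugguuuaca
miR-374: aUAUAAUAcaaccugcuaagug
miR-3559-5p: uGACAGACuuaguacuacauga
miR-130a: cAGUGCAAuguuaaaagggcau
miR-34a: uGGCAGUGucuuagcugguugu
miR-21: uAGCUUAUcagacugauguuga
miR-126: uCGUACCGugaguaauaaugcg

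The second set holds miRNAs that were lower at 72 h.
miR-145: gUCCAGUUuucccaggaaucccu
miR-181a: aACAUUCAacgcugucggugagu
miR-125b-5p: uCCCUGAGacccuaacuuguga
miR-125a-5p: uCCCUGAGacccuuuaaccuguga
miR-139-5p: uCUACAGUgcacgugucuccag
miR-378: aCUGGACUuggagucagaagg

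The third set is shown because members with one seed were called in opposite directions. miR-34a of the first set belongs with miR-34c here, and miR-3596c is read from the strand opposite let-7e.
miR-29a: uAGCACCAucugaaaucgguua
miR-29b: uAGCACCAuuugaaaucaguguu
miR-29c: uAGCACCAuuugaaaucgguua
let-7e: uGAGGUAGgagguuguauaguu
let-7f: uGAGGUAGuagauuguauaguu
miR-34c: aGGCAGUGuaguuagcugauugc
miR-3596c: aCUAUACAaccuccuaccuca

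In the nCounter assay of NanoString a barcoded probe is bound to every miRNA molecule and imaged, without amplification. The deposited values are log2 CPM (log-cpm, counts scaled to a common library size), and whole counts could be recovered from them. Total counts were 97827 to 196972 at 6 h and 163533 to 267582 at 72 h, and the mean total was 1.70 times as high at 72 h. The hepatocyte miRNA miR-122 took 58.4% to 64.7% of all counts at 6 h and 57.4% to 63.3% at 72 h. No 2 animals of a group agreed within counting noise, so none were merged as 1 library. Changes are log2 fold changes (72 h minus 6 h) ± standard error from limma, with 3 animals per time, a spread shared by the 24 untreated animals of the study, and Benjamini-Hochberg adjustment over the 143 miRNAs. Nothing states that the 3 animals of a group came from separate litters or feeding pairs, and p-values measure the spread between these animals.

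Between 6 and 72 h, 53 of 143 miRNAs changed in EtOH-fed animals at an adjusted p under 0.05 (37.1%). Of these, 31 were higher at 72 h (21.7%) and 22 were lower (15.4%). The median change over all 143 was 0.05 on the log2 scale. In all 31 and all 22, the 3 animals of one time did not overlap the 3 of the other, whereas 47.6% of all miRNAs showed such separation. The number of decreases depended on single animals. It was 13 without 4_5, 14 without 4_6 or 4_10, and 11 without 4_12. Large increases outnumbered large decreases, with 15 miRNAs higher by at least 1 on the log2 scale and 4 lower by as much. Scaling affected the balance of directions. Scaling to the total count gave 27 higher and 27 lower miRNAs and shifted the median of all miRNAs by -0.11, and scaling to the 100 most abundant miRNAs gave 27 higher and 29 lower with a shift of -0.15. With the log10 total count of each animal as a covariate 23 were higher and 15 lower, among them 18 of the 31 and 11 of the 22 above.

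**Figure D1:**
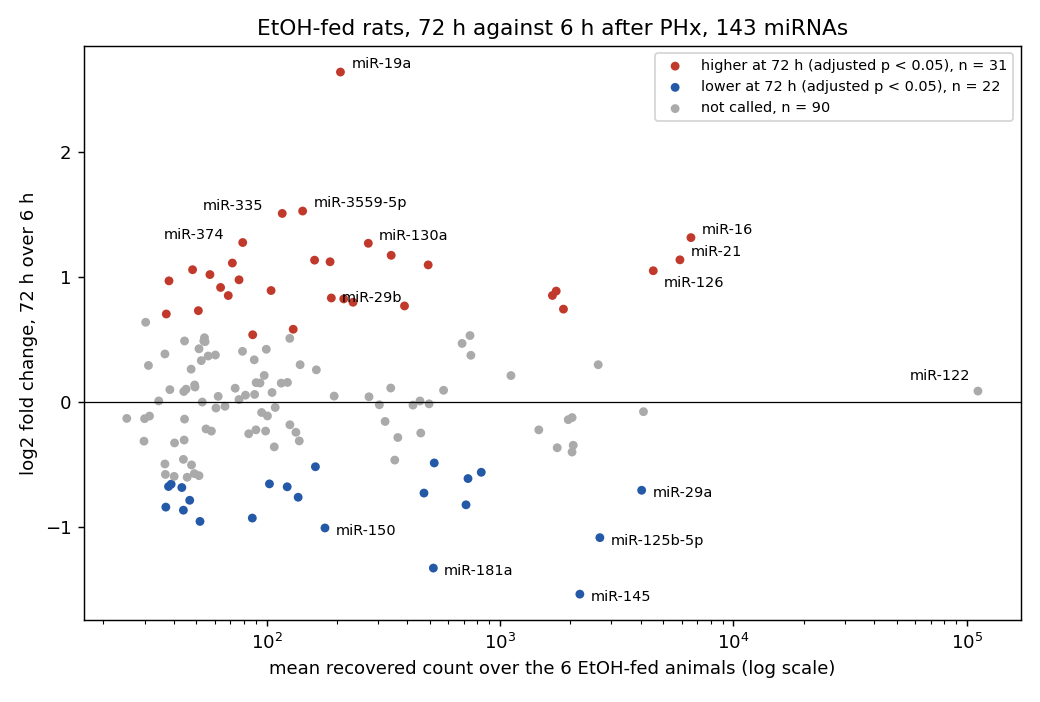
Each point is 1 of 143 miRNAs in EtOH-fed rats, with the mean recovered count over the 6 animals on the x axis (log scale) and the log2 fold change of 72 h over 6 h on the y axis. Red points were higher (31) and blue points lower (22) at an adjusted p under 0.05, and miR-19a lies far above the other miRNAs at 2.64.

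The largest change of all was in miR-19a, a member of the miR-17/92 cluster, which promotes proliferation. Its level was 8.51, 8.48 and 7.69 log2 CPM at 6 h and 11.06, 10.55 and 10.99 at 72 h. This was 6.22-fold higher at 72 h, a log2 fold change of 2.64 ± 0.49 (adjusted p = 0.000435). The counts behind it were low at 6 h, at 63, 33 and 23, and rose to 461, 336 and 327. At 6 h the median count of the 10 least abundant miRNAs, a measure of background, was 33.0, 16.5 and 22.5 in these animals, so miR-19a was close to it in 4_6. The size of the change depended on the processing, from 1.80 with total count as a covariate to 4.46 with this background subtracted, and the call was kept throughout. miR-19b, which differs from miR-19a at 1 of 23 bases, rose by 1.12 ± 0.30 (adjusted p = 0.00666), and how well the probes of such close relatives separate them was not tested. The miR-19b call was lost with total count as a covariate (0.68, adjusted p = 0.0789).

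Of the 7 measured miRNAs of the miR-17/92 cluster and its miR-106b paralog, miR-19a and miR-19b included, 4 rose and none fell, beside 21.7% and 15.4% of all miRNAs. All 7 had positive values, with a median of 0.77 against 0.05 over all miRNAs. miR-17-5p rose from 10.56, 10.79 and 10.70 log2 CPM to 11.71, 11.43 and 11.21, a change of 0.77 ± 0.18 (adjusted p = 0.00295). miR-106b, located with miR-25 and miR-93 in an intron of Mcm7, rose by 0.85 ± 0.21 (adjusted p = 0.00305). It had 51, 18 and 41 counts at 6 h, of which the 18 in 4_5 was near the background of 16.5. Background subtraction was not run for miR-106b. Its neighbours had values of 0.51 for miR-93 (adjusted p = 0.0529, called in 6 of 18 alternatives) and 0.21 for miR-25 (adjusted p = 0.280), and the joint probe for miR-20a and miR-20b-5p had 0.47 (adjusted p = 0.0739). In RefSeq, miR-17-5p, miR-19a and miR-19b lie together on chr15:98587861-98588508 on the plus strand, and further copies of miR-17-5p and miR-19b lie on the X chromosome. A mature sequence made from both places cannot be assigned to one of them.

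The miR-15/16 family, which shares the seed AGCAGCA and targets cyclins and other cell cycle genes, had 3 of 5 members higher and none lower, beside 21.7% and 15.4% of all miRNAs, and 1 of the 3 calls was unstable. miR-16, one of the most abundant miRNAs that changed, was at 14.72, 14.22 and 14.04 log2 CPM at 6 h and 15.74, 15.67 and 15.51 at 72 h. The groups were far apart, and the 2.49-fold increase (log2 fold change 1.31 ± 0.23) had an adjusted p of 0.000213. miR-15b, its neighbour on chr2:155555197-155555364, rose from 12.50, 12.88 and 12.91 to 13.67, 13.79 and 13.49 (0.89 ± 0.21, adjusted p = 0.00295). miR-322 was also called (0.58 ± 0.22, adjusted p = 0.0439), but this call was lost in 12 alternative fits, including all 3 other scalings, the total count covariate and the omission of any 1 of the 6 EtOH-fed animals. Members of the separate miR-497/195 cluster were not called, with values of -0.57 for miR-497 (adjusted p = 0.0575) and 0.34 for miR-195 (adjusted p = 0.358).

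Several miRNAs with seeds of their own rose with small spread between animals. miR-374 had the smallest p of all increases. It stood at 8.10, 7.97 and 7.97 log2 CPM at 6 h and 9.36, 9.27 and 9.23 at 72 h, a change of 1.28 ± 0.17 (adjusted p = 1.36e-05). Its counts at 6 h were 47, 23 and 28, near the background of 33.0, 16.5 and 22.5 in these animals. miR-3559-5p rose from 8.84, 8.68 and 8.48 to 10.22, 10.08 and 10.28, a change of 1.53 ± 0.26 (adjusted p = 0.000213) that ranged from 1.10 to 2.16 over the alternatives. Both arms of the miR-340 hairpin were higher by almost the same amount, 0.98 ± 0.31 for miR-340-5p (adjusted p = 0.0151) and 0.97 ± 0.20 for miR-340-3p (adjusted p = 0.000957). The miR-340-5p call was lost with scaling to the total count, with the covariate, with correction for base composition, and without animal 4_6 or 4_12 (adjusted p = 0.053 to 0.118). The miR-340-3p call was kept in every fit run for it. Its 24, 16 and 15 counts at 6 h did not exceed the background given above, so the size of its change is uncertain. Background subtraction was limited to mean counts of at least 100 and covered neither miR-374 nor miR-340-3p. Together these 4 miRNAs, a list assembled with earlier results of these data known, had a median change of 1.13.

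miR-34a, which p53 induces and which represses cell cycle genes, had 8.0, 7.84 and 8.11 log2 CPM at 6 h and 9.28, 9.05 and 8.97 at 72 h. It was 2.16-fold higher (1.11 ± 0.22, adjusted p = 0.000859). Its counts at 6 h were 44, 21 and 31, near the background of 33.0, 16.5 and 22.5 in these animals. miR-130a rose from 9.85, 9.90 and 9.60 to 11.28, 10.99 and 10.89 (1.27 ± 0.25, adjusted p = 0.000738), and its family member miR-301a rose by 1.02 ± 0.27 (adjusted p = 0.0060). The 28, 24 and 27 counts of miR-301a at 6 h were near the background. miR-335, which lies in an intron of Mest, was higher by 1.51 ± 0.36 (adjusted p = 0.00275), and with 47, 40 and 34 counts at 6 h its value ranged from 1.10 with total count as a covariate to 2.47 with background subtracted. Further increases of about this size were found for miR-101b, a repressor of the histone methyltransferase Ezh2 (1.17 ± 0.35, adjusted p = 0.0122), for miR-152, a repressor of Dnmt1 (1.10 ± 0.27, adjusted p = 0.00319), and for miR-872 (1.06 ± 0.24, adjusted p = 0.00175). The 29, 16 and 21 counts of miR-872 at 6 h did not exceed the background. Background subtraction was not run for miR-34a, miR-301a or miR-872, whose mean counts were under 100. The miR-101b call was lost without animal 4_12 (1.01, adjusted p = 0.0601) and with total count as a covariate (1.00, adjusted p = 0.0616). miR-101a, which differs from miR-101b at 1 of 21 bases, had a value of 0.64 (adjusted p = 0.0868). The 20, 18 and 13 counts of miR-101a at 6 h were near or below the background.

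miR-21, the miRNA inhibited elsewhere in the study and a repressor of Pdcd4, was higher at 72 h. Its levels were 14.68, 14.33 and 13.94 log2 CPM at 6 h and 15.66, 15.16 and 15.55 at 72 h. The groups did not overlap, and the change was 1.14 ± 0.29, or 2.20-fold (adjusted p = 0.00472). The same animals had 4556, 1930 and 1791 counts of miR-21 at 6 h and 11200, 8198 and 7705 at 72 h. The call was lost when all 48 animals set the spread (adjusted p = 0.0802) and with total count as a covariate (0.59, adjusted p = 0.0610). The 48 include animals given saline or AM21, and miR-21 was at 11.12, 9.65 and 14.10 log2 CPM in the EtOH.0hr.saline group.

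**Figure D2:**
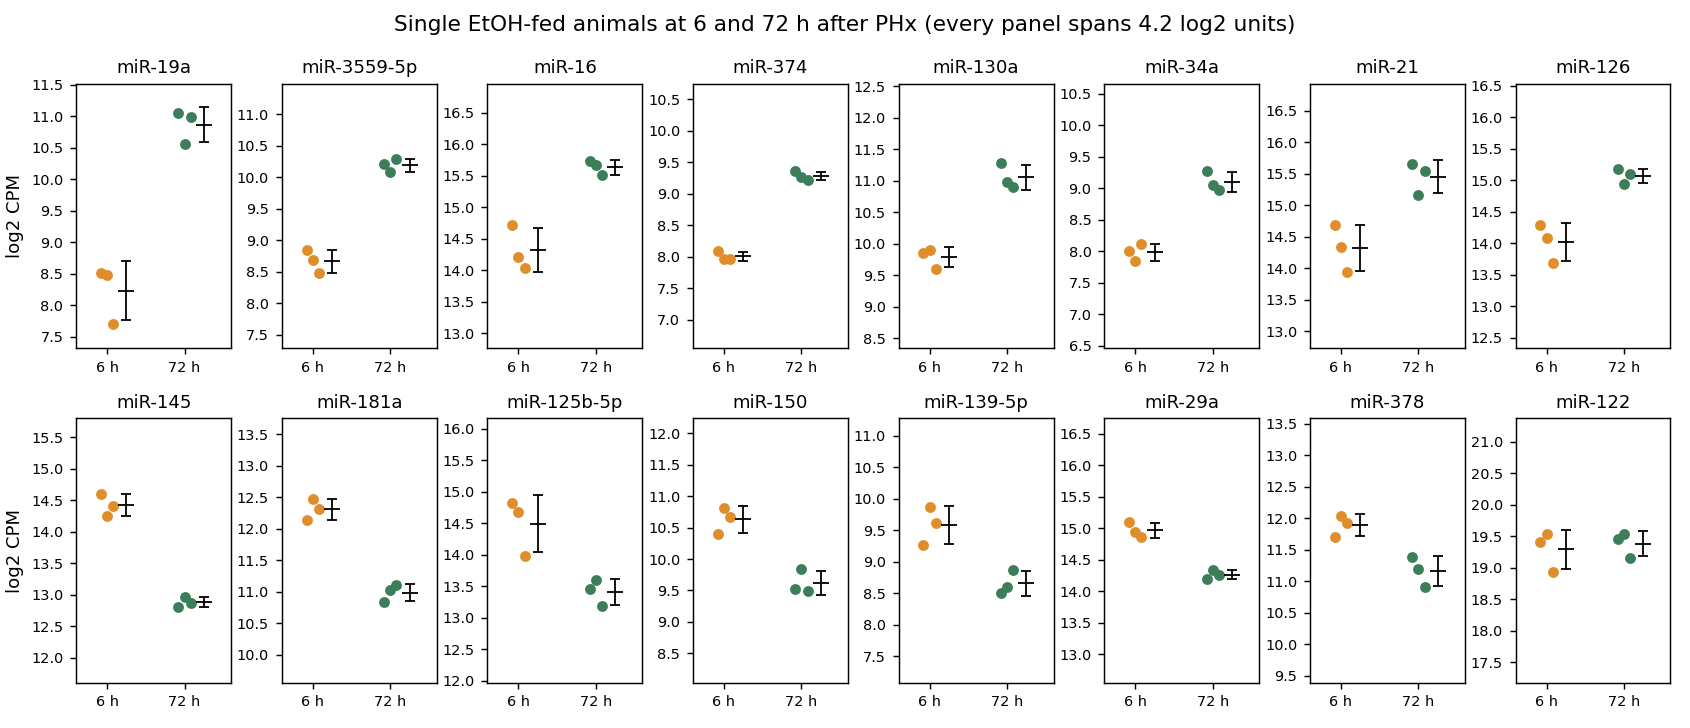
Each panel shows 1 miRNA, with log2 CPM on the y axis and the 3 EtOH-fed animals at 6 h (orange) and at 72 h (green) as points, beside the mean ± SD in black. All panels span the same number of log2 units, so the separation of miR-19a, miR-145 and miR-374 and the overlap in miR-122 can be read on one scale.

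The decrease with the smallest p was in miR-145, a miRNA of smooth muscle and other mesenchymal cells. It was at 14.60, 14.25 and 14.42 log2 CPM at 6 h and 12.81, 12.97 and 12.88 at 72 h. It fell by 1.53 ± 0.20 on the log2 scale and was 2.90-fold lower (adjusted p = 1.09e-05). Its raw counts fell from a range of 1822 to 4310 to a range of 1209 to 1798, although the total counts rose. miR-143, which is encoded beside miR-145, had only 44.5 counts on average and a value of -0.14 (adjusted p = 0.706). It had 62, 21 and 31 counts at 6 h, beside a background of 33.0, 16.5 and 22.5. At 72 h it had 58, 47 and 48, beside a background of 49, 47.5 and 31, so its change is uncertain.

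miR-181a, which tunes antigen receptor signaling in lymphocytes and is also made in other tissues, fell from 12.14, 12.47 and 12.32 to 10.83, 11.02 and 11.10 log2 CPM. The change of -1.33 ± 0.20 corresponds to a level 2.51-fold lower at 72 h (adjusted p = 5.09e-05). The second measured member with its seed, miR-181c, had a value of 0.33 (adjusted p = 0.499) from low and scattered levels, 7.90, 8.96 and 7.49 at 6 h and 8.39, 8.03 and 8.93 at 72 h. Both members of the miR-125 family fell. miR-125b-5p was at 14.83, 14.69 and 13.98 at 6 h and 13.46, 13.59 and 13.18 at 72 h (-1.08 ± 0.28, adjusted p = 0.00518), with 1 animal at 6 h close to the later group. miR-125a-5p fell by 0.82 ± 0.22 (adjusted p = 0.00581), a call lost with total count as a covariate (-0.58, adjusted p = 0.0560). miR-351 carries the same seed as the miR-125 pair and had a value of 0.15 (adjusted p = 0.713).

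miR-139-5p, which is encoded within Pde2a, fell from 9.26, 9.87 and 9.62 to 8.50, 8.59 and 8.87 log2 CPM (-0.93 ± 0.19, adjusted p = 0.00114). miR-378, which is encoded within Ppargc1b, a coactivator gene of mitochondrial metabolism, fell from 11.71, 12.04 and 11.93 to 11.39, 11.20 and 10.91 (-0.73 ± 0.20, adjusted p = 0.00769). This call was lost without animal 4_12 (-0.60, adjusted p = 0.0531). miR-100 fell by 0.68 ± 0.22 (adjusted p = 0.0200) and miR-365 by 0.56 ± 0.18 (adjusted p = 0.0170). miR-100 was no longer called without 4_4, 4_5 or 4_12 or with correction for base composition, and miR-365 was no longer called without 4_6, 4_10 or 4_12 or with total count as a covariate.

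Among the 22 decreases, 7 rested on a mean count under 60. These 7 had mean counts of 37.3 to 57.0 at 6 h and 35.7 to 46.7 at 72 h, so their raw counts moved little while the totals rose 1.70-fold. Of the 31 increases, 5 had a mean count under 60. Restricting the test to the 68 miRNAs with a mean of at least 100 counts gave 19 higher and 15 lower, which included every one of the 19 and 13 tested there that had been called before. The 7 thinly counted decreases include miR-34c and miR-3596c.

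Members with the same seed were called in opposite directions in 3 families. In the miR-29 family, which represses collagens and other matrix genes, miR-29a fell and miR-29b rose. miR-29a was at 15.10, 14.94 and 14.87 log2 CPM at 6 h and 14.20, 14.34 and 14.25 at 72 h (-0.70 ± 0.15, adjusted p = 0.00171). miR-29b was at 9.52, 9.82 and 9.55 at 6 h and 10.46, 10.21 and 10.71 at 72 h (0.83 ± 0.25, adjusted p = 0.0122). Both are encoded on chr4:60617968-60618364 on the minus strand, with another copy of miR-29b beside miR-29c on chr13:109098882-109099433, and they differ at 4 of the 22 bases compared. miR-29c, which differs from miR-29a at 1 base, had a value of 0.53 (adjusted p = 0.193). The miR-29a call was kept in every alternative fit, and the miR-29b call was lost without animal 4_12 (0.71, adjusted p = 0.0601) and with total count as a covariate (0.60, adjusted p = 0.0925).

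In the let-7 family, which holds back growth by repressing Ras, Myc and Lin28, 1 of 8 members rose, 1 fell and 6 were not called, and the median was -0.10. let-7f rose from 13.03, 13.03 and 12.86 to 13.76, 13.76 and 13.61 log2 CPM (0.74 ± 0.19, adjusted p = 0.00467). let-7e fell from 10.25, 10.17 and 10.28 to 9.71, 9.88 and 9.56 (-0.52 ± 0.14, adjusted p = 0.00722). The pair differs at 2 of 22 bases. The let-7f call was lost with total count as a covariate, while let-7e was called in every fit. let-7e lies with miR-99b and miR-125a-5p on chr1:67350070-67350712, and the values in this cluster were all negative, with miR-99b at -0.46 (adjusted p = 0.0739, called as lower in 5 of 20 alternatives, all 3 other scalings included). miR-3596c, whose 21 bases are the exact reverse complement of let-7e from its first base, fell as well (-0.95 ± 0.27, adjusted p = 0.0080). Its call was lost without animal 4_5 or 4_10 and with the total count covariate (adjusted p = 0.0529 to 0.118).

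miR-34a and miR-34c share the seed GGCAGUG and differ at 11 of 22 bases. While miR-34a rose, miR-34c fell from 8.24, 8.53 and 8.61 to 7.81, 7.70 and 7.82 (-0.68 ± 0.25, adjusted p = 0.0341). This decrease was the weaker of the pair. It was lost with the total count covariate and without any of 5 of the 6 EtOH-fed animals. At 72 h the 48, 46 and 36 counts of miR-34c were near the background of 49, 47.5 and 31 in these animals. miR-34a was near background at 6 h, so each of the opposite changes had an end near background.

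**Figure D3:**
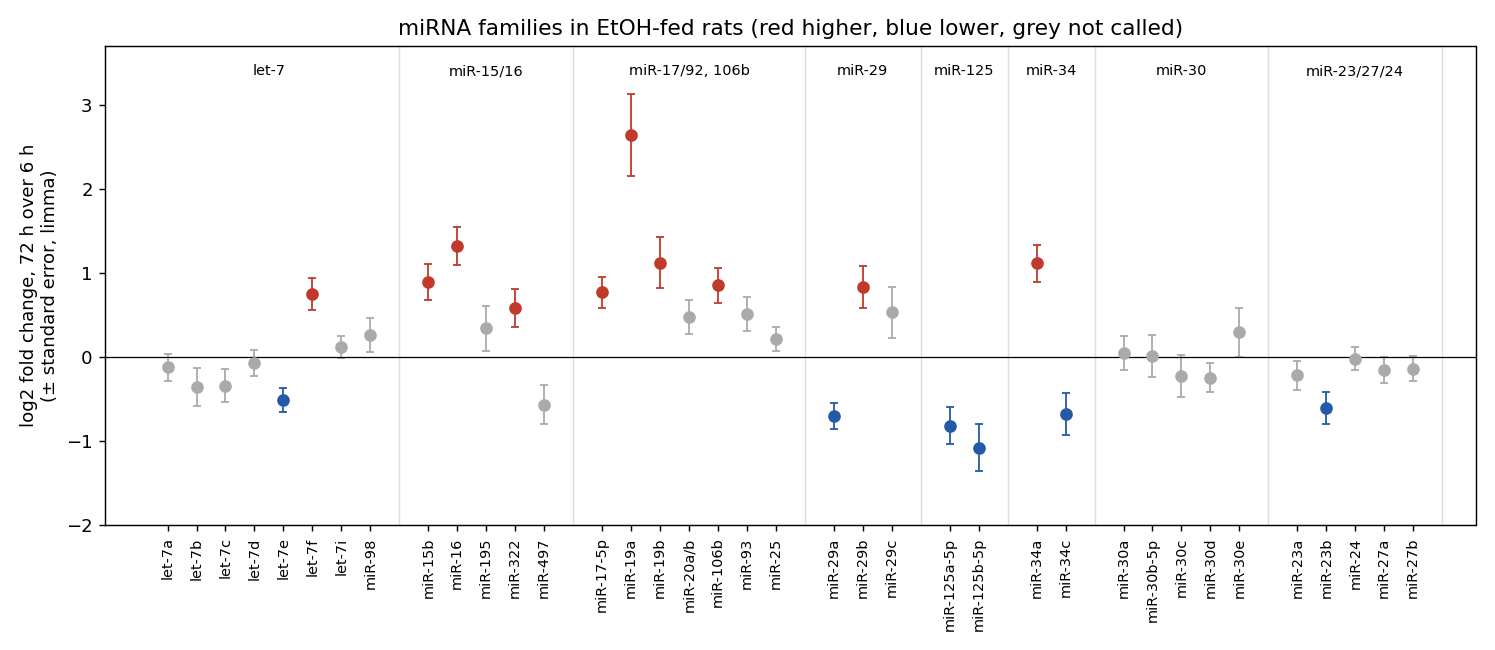
Log2 fold change of 72 h over 6 h (± standard error from limma) for each measured member of 8 families in EtOH-fed rats, with red for higher, blue for lower and grey for not called. Members of the miR-17/92 and miR-106b clusters all lie above 0, the miR-125 pair lies below 0, and the let-7, miR-29 and miR-34 families hold members on both sides.

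Other families held few calls. None of 5 members of the miR-30 family was called, with values from -0.25 to 0.29. In the miR-23/27/24 clusters 1 of 5 was lower, miR-23b (-0.61 ± 0.19, adjusted p = 0.0126), and all 5 had negative values with a median of -0.15. The miR-23b call was lost without animal 4_5 or 4_10. Neither member of the miR-26, miR-103 and miR-107, or miR-146 families was called.

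Markers of the cell types of liver were examined next. Among 5 hepatocyte miRNAs 1 rose and none fell, a share near that of all miRNAs (21.7% higher, 15.4% lower). miR-122, the dominant miRNA of hepatocytes, was at 19.41, 19.53 and 18.94 log2 CPM at 6 h and 19.46, 19.53 and 19.15 at 72 h. These groups overlapped almost fully, and the value was 0.09 ± 0.18 (adjusted p = 0.759), a sign that turned under scaling to the total count. miR-192 rose from 13.01, 12.72 and 12.43 to 13.70, 13.52 and 13.49 (0.85 ± 0.24, adjusted p = 0.00769), and the call was lost with the total count covariate (0.40, adjusted p = 0.103). miR-194, its neighbour on chr1:212994038-212994252, had a value of 0.30 (adjusted p = 0.354), and miR-22 had -0.40 (adjusted p = 0.0618).

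The endothelial miRNA miR-126 rose from 14.28, 14.08 and 13.68 to 15.17, 14.94 and 15.09 log2 CPM. It was 2.07-fold higher (1.05 ± 0.29, adjusted p = 0.00754), and with total count as a covariate the value was 0.49 (adjusted p = 0.103). It was the sole endothelial marker in the table.

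Mesenchymal markers did not move as a group. miR-145 fell, whereas the values of the other 3 measured were 0.42 for miR-199a-5p (adjusted p = 0.130), 0.37 for miR-199a-3p (adjusted p = 0.210) and -0.14 for miR-143. The miR-143 value is uncertain, since its counts were low beside the background, as given above. Of 5 leukocyte markers 1 was higher and 2 were lower, beside 21.7% and 15.4% of all miRNAs. Among the 5 is miR-146a, which the study links to stellate cells and which was not called (-0.02). miR-142-3p, a miRNA of blood-forming cells, rose from 9.81, 9.80 and 9.80 to 10.52, 10.62 and 10.74 (0.82 ± 0.26, adjusted p = 0.0148), although this was lost without animal 4_12, with the covariate and with correction for base composition. miR-150, typical of mature lymphocytes, fell from 10.40, 10.81 and 10.66 to 9.52, 9.84 and 9.50 (-1.01 ± 0.23, adjusted p = 0.00203). miR-342-3p fell by 0.65 ± 0.23 (adjusted p = 0.0254), a call lost without any of 4 animals, with the covariate and with correction for base composition, and the neutrophil miRNA miR-223 had a value of 0.37 (adjusted p = 0.332). Among 4 epithelial miRNAs miR-203 rose (1.13 ± 0.32, adjusted p = 0.00782, lost with the covariate), and miR-200b, miR-429 and miR-31 had values of 0.51, -0.23 and -0.36 that were not called. What part changes in cell composition had in any of these values was not tested.

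The red blood cell miRNAs miR-451 and miR-144 were not called in EtOH-fed animals. miR-451 was at 9.31, 8.76 and 9.17 log2 CPM at 6 h and 8.03, 9.30 and 9.15 at 72 h (-0.25 ± 0.30, adjusted p = 0.555). miR-144 was at 9.72, 9.08 and 9.52 at 6 h and 8.80, 10.31 and 10.11 at 72 h (0.30 ± 0.38, adjusted p = 0.592). In both, animal 4_10 was far below the other 2 animals at 72 h.

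The study took 2 lists from cultured rat stellate cells, miRNAs that rise and miRNAs that fall when these fibrogenic cells activate. Of the 16 miRNAs of the list that rises, 14 were matched in the table by name, of which 2 were higher and 3 lower at 72 h, with a median of -0.29. The higher ones were miR-21 and miR-152, and the lower ones were miR-145, miR-125b-5p and let-7e. Of the 26 of the list that falls, 22 were matched, with miR-10a taken as its 5p probe, of which 5 were higher (miR-335, miR-16, let-7f, miR-192 and miR-126) and 4 lower (miR-181a, miR-150, miR-125a-5p and miR-29a), with a median of 0.05. Over all 143 miRNAs 21.7% were higher and 15.4% lower, and the median was 0.05.

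The same times were compared in the CHO-fed controls, which share no animal with the EtOH-fed groups. Of the 53 miRNAs called in EtOH-fed animals, 51 had the same sign in CHO-fed animals, 30 of the 31 higher and 21 of the 22 lower. The share of equal sign over all miRNAs was not taken. Total counts also differed between the times in CHO-fed animals, at 87009 to 134618 at 6 h and 171919 to 209221 at 72 h. The CHO contrast called 21 higher and 23 lower, but 2 and 6 with total count as a covariate. The miRNAs were chosen for their change in EtOH-fed animals, so their smaller size in CHO-fed animals (43 of 53, median absolute change 0.74 against 0.86) is a description. miR-19a rose by 2.38 in CHO-fed animals and miR-21 by 1.21, and miR-181a fell by 1.18. The difference between the diets in this change was tested directly, and limma called 0 of 143 miRNAs (0.00% by adjusted p), with 8 at an unadjusted p under 0.05, a smallest adjusted p of 0.260, and also 0 with voom weights.

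The 3 smallest p of the difference between diets belonged to miR-451, miR-144 and miR-350. In CHO-fed animals miR-451 was at 9.87, 9.33 and 9.38 log2 CPM at 6 h and 8.10, 7.59 and 7.61 at 72 h, without overlap, a change of -1.76 ± 0.30. The change in EtOH-fed animals was a smaller decrease (-0.25), a difference of 1.51 ± 0.43 between the diets (unadjusted p = 0.00182, adjusted p = 0.260 in limma). For miR-144, encoded in the same cluster on chr10:63459446-63459606, the CHO change was -1.44 ± 0.38 and the diets differed by 1.74 ± 0.54 (unadjusted p = 0.00381, adjusted p = 0.273). Without animal 4_10, which had the lowest level of both at 72 h in EtOH-fed animals, these 2 differences passed the threshold, at 1.91 for miR-451 (adjusted p = 0.0090) and 2.21 for miR-144 (adjusted p = 0.0166). Leaving out the lowest animal at 72 h was bound to enlarge both differences, and omission of any other animal gave no call. miR-350 rose in EtOH-fed animals from 7.79, 8.35 and 7.86 to 8.90, 8.77 and 9.09 (0.92 ± 0.19, adjusted p = 0.00108) and had a value of 0.14 ± 0.19 in CHO-fed animals, and the difference of 0.78 ± 0.27 had an adjusted p of 0.389. With 38, 30 and 26 counts at 6 h, miR-350 was near the background of 33.0, 16.5 and 22.5 in these EtOH-fed animals. Background subtraction was not run for it.

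miR-365 was 1 of the 2 called miRNAs with the opposite sign in CHO-fed animals. Its change was -0.56 with ethanol and 0.10 with carbohydrate, and the difference of -0.66 ± 0.26 did not pass (adjusted p = 0.501). For miR-378 the difference was -0.59 ± 0.29 (adjusted p = 0.739). A p above the threshold does not show that the diets had equal changes.

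**Figure D4:**
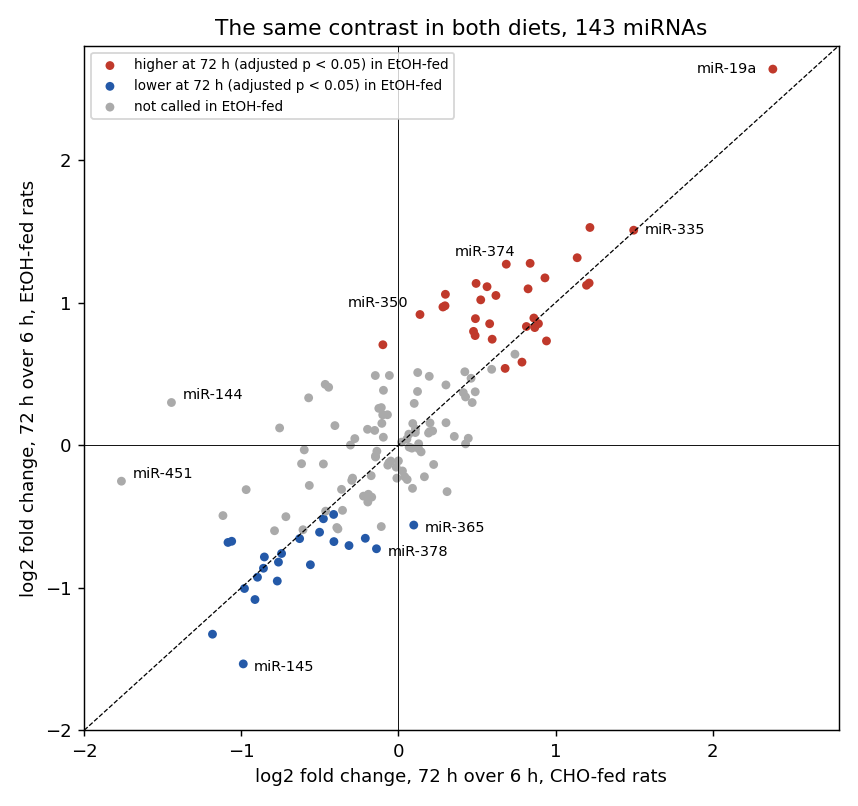
Each point is 1 of 143 miRNAs, with the log2 fold change of 72 h over 6 h in CHO-fed rats on the x axis and in EtOH-fed rats on the y axis, and the dashed line marks equal change. Of the 53 coloured miRNAs called in EtOH-fed animals 51 lie in the 2 quadrants of equal sign, and miR-451 and miR-144 lie left of the line with decreases in CHO-fed animals.

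Levels at 0 and 24 h in EtOH-fed animals place these changes in the course after PHx, as a description, because those animals belong to sets 1 to 3. For the miRNAs that were higher at 72 h, the median difference from resting liver (0 h) was -0.56 at 6 h, then 0.26 at 24 h and finally 0.59. For those that were lower the corresponding medians were 0.31, -0.18 and -0.42. The 0 h mean lay between the 6 and 72 h means for 26 of the 31 and 20 of the 22. Choosing miRNAs by a gap between 6 and 72 h favours this pattern, and its share over all miRNAs was not taken. miR-145 followed this pattern, with a mean of 13.78 ± 0.23 log2 CPM in resting liver, a peak of 14.42 ± 0.17 at 6 h, then 13.45 ± 0.19 and 12.89 ± 0.08 at the later times (SD, n = 3). miR-19a was at 10.08 ± 1.10, 8.23 ± 0.47, 10.76 ± 0.19 and 10.87 ± 0.27 at these times (SD, n = 3), so that the mean was lowest at 6 h. Resting animals were spread, at 10.58, 8.81 and 10.85, and the one at 8.81 was close to the 8.51 and 8.48 of animals at 6 h. miR-16 did not show a low point beyond its spread, with 14.39 ± 0.03 at 0 h and 14.33 ± 0.35 at 6 h before 14.83 ± 0.24 and 15.64 ± 0.12 (SD, n = 3). miR-34a was at 7.80 ± 0.14, 7.99 ± 0.14, 8.55 ± 0.31 and 9.10 ± 0.16 (SD, n = 3). miR-29a was near its resting level of 15.00 ± 0.08 at 6 h (14.97 ± 0.12) and at 24 h (14.86 ± 0.07), and was lower at 72 h (14.26 ± 0.07; SD, n = 3).

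Base composition of the mature miRNA moved with the change. Over the 122 miRNAs with a sequence, the share of G and C bases and the log2 fold change had a Pearson r of -0.36 and a Spearman rho of -0.35 across miRNAs, which share animals and are not independent replicates. The median was 40.9% G and C for 27 higher miRNAs, 48.9% for 20 lower and 45.5% for 75 not called. Of 30 miRNAs with under 40% G and C, 11 were higher and 2 lower, and of 39 with at least 50%, 2 were higher and 10 lower. miR-340-5p, miR-374 and miR-19a, at 27.3%, 31.8% and 34.8%, are examples of the former, and miR-145 at 52.2% of the latter.

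Levels of each animal were taken as deviations from the mean of each miRNA over the 24 untreated animals, so the sign of a slope is relative to that mean. The slope of these deviations on the share of G and C was positive in all 3 EtOH-fed animals at 6 h (0.18, 0.20 and 0.23 log2 units per 10 percentage points) and negative in all 3 at 72 h (-0.06, -0.03 and -0.10). CHO-fed animals had slopes of 0.20, 0.20 and 0.15 at 6 h and -0.05, 0.01 and -0.03 at 72 h, so the difference between times was present in both diets. Resting animals varied in this slope, with 0.14 in 1 EtOH-fed animal at 0 h against -0.12 and -0.24 in the other 2, and 0.18 in 1 CHO-fed animal against -0.18 and -0.14. These 2 animals had the lowest totals of their groups, 92245 and 58168 counts. Slope did not follow the total everywhere: 4_4 at 6 h had 196972 counts and a slope of 0.18, and 4_12 at 72 h had 163533 counts and -0.10. With this slope removed from every animal, 29 miRNAs were higher and 17 lower, among them 24 of the 27 and 15 of the 20 that had a sequence. miR-345-5p (61.9% G and C) fell by 0.76 ± 0.23 (adjusted p = 0.0126) before this correction and had -0.32 (adjusted p = 0.174) after it, and miR-99b turned to 0.03. The part of the assay, of the total count or of RNA quality in this slope was not tested.

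**Figure D5:**
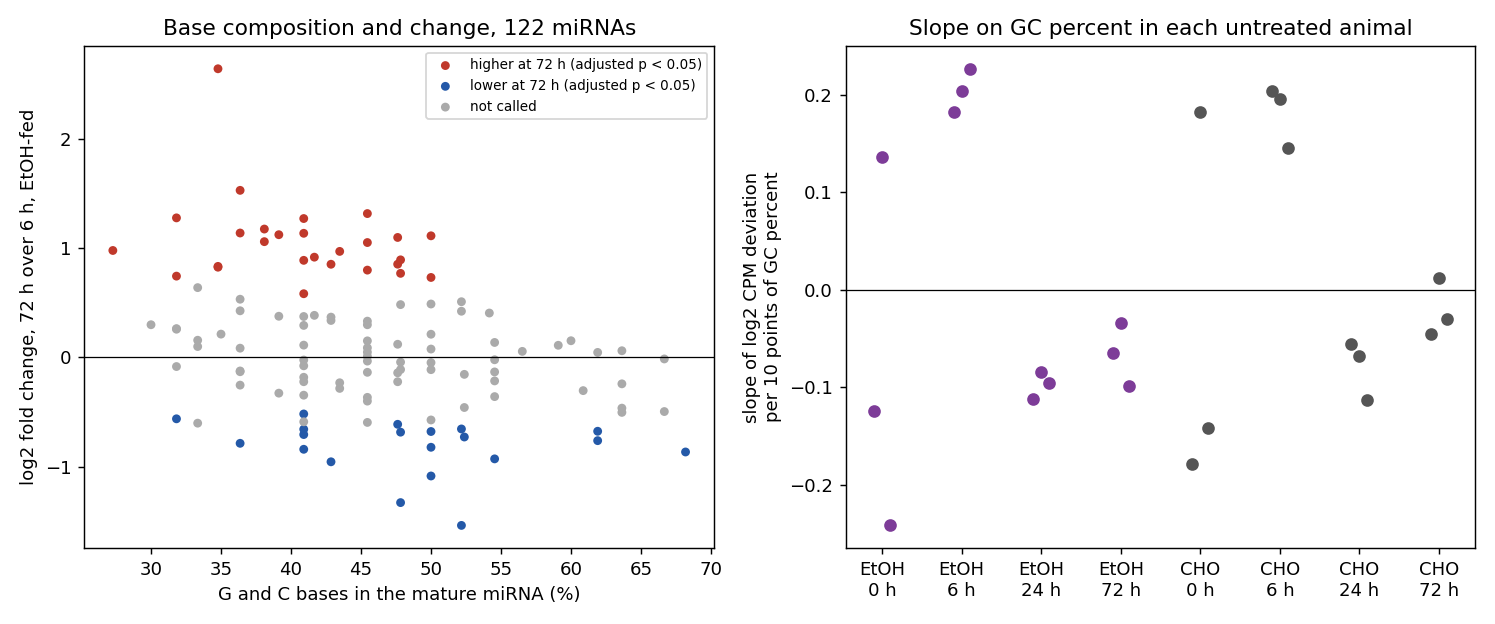
Left, percent of G and C bases in the mature sequence on the x axis and log2 fold change of 72 h over 6 h in EtOH-fed rats on the y axis for 122 miRNAs, coloured by call. Right, the slope of log2 CPM deviations on that percentage in each of the 24 untreated animals, which was between 0.15 and 0.23 in all 6 animals at 6 h and between -0.10 and 0.01 in all 6 at 72 h.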

How the data were processed

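RNA of frozen liver was assayed by NanoString against a panel of rat miRNAs. The authors scaled raw counts by TMM, applied voom of limma, and deposited log2 CPM (log-cpm) for 143 miRNAs in 48 animals. How these were selected is not given in the sources used here. Whole counts were recovered using the pseudocount of 0.5 of voom, 100.0% of values within 0.001 of a whole number. Groups came from the labels.

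The log2 CPM of 24 untreated animals in 8 groups were fitted with one mean per group by lmFit and eBayes of limma 3.58.1 (R 4.3.3), without a filter, and miRNAs were called where the p adjusted by Benjamini-Hochberg was under 0.05. The steps were tested on simulated data. Lists and members were chosen with earlier results of these data known. Named miRNAs were the 10 with the smallest adjusted p and the 5 with the largest change in each direction, the 3 with the smallest p of the diet difference, cell type markers, miR-21, and members of families or lists described, some of them added after their values were seen. A probe name without an arm was matched to its RefSeq arm. Alternatives were other scalings, a pseudocount of 5 counts, a minimum mean count of 100, voom weights, a variance trend, other animals in the fit, the set as a block, total count as a covariate, and omission of each animal. Correction for base composition and background subtraction were added after seeing the data. Figures used matplotlib 3.10.9 in Python 3.11.15.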

Additional observations from a re-analysis of the deposited data

How the results depend on the processing

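Of 44 named miRNAs called between 72 and 6 h, 23 kept the call under every alternative run for them, and none reversed its direction. Background subtraction was run only for miRNAs with a mean count of at least 100, so miR-374, miR-340-3p, miR-34a, miR-872, miR-350 and miR-106b, among others, were not covered. The 31 increases became 19 among the 68 miRNAs with a mean count of at least 100, and 18 there with background subtracted, where fewer miRNAs were tested. Omission of single EtOH-fed animals gave 26 to 31 increases and 11 to 20 decreases, and omission of single CHO-fed animals, which share the spread, gave 30 to 32 and 21 to 23. Decreases numbered 13 without 4_5, 14 without 4_6 or 4_10, and 11 without 4_12. The call counts for the difference between diets ranged from 0 to 2 under omission, with 2 without 4_10. The numbered set as a replicate block gave 33 increases and 25 decreases. It could pair only animals at 0 and 24 h, since the animals at 6 and 72 h share no number. Values of uncalled miRNAs changed sign for miR-122 (-0.0218 scaled to total count, -0.0649 scaled to the 100 most abundant, and -0.09 to 0.2055 under omission of an animal, negative without 4_6), miR-143 (-0.2887 to 0.0349 under omission, positive without 4_4 or 4_11), miR-194 (-0.14 with total count as a covariate), miR-451 (-0.491 to 0.1468 under omission, positive without 4_10), and, with base composition corrected, miR-144 (-0.1203) and miR-99b (0.0253). The cause was not tested. Precision is limited by 3 animals per group and by low counts. The lower totals at 6 h make counting error larger there.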
